A study of Rattus norvegicus with 24 samples.

Results

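The enzymes that carry glucose through glycolysis to pyruvate, lactate and the TCA cycle were followed in the rat retina after 1 and 3 months of streptozotocin (STZ) diabetes. The list held 46 genes, and it also took in the fructose bisphosphate regulators, the pyruvate dehydrogenase kinases, the shuttle enzymes, the pentose phosphate enzymes Taldo1 and Tkt and the brain creatine kinase Ckb. A probe belonged to a gene when the RefSeq accession printed for it on the array mapped to that symbol in the RefSeq gene table of the GRCr8 assembly. By this rule 28 of the 46 genes had a probe, with 33 probes among the 33849 rat probes of the array. The other 18 genes (Gpi, Pfkp, Tpi1, Pgam2, Eno1, Eno2, Pdha1, Dlat, Aco1, Idh1, Idh3b, Idh3g, Ogdh, Sdha, Sdhb, Mdh1, Got1 and Gpd2) had no probe under this match and were not analysed here.

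The study asked how retinal gene expression changed with the duration of diabetes. Male Sprague Dawley rats received an intraperitoneal injection of STZ, a toxin of the insulin-producing beta cells, in citrate vehicle, or the vehicle alone (Control), and whole retinas were taken 1 or 3 months later. STZ rats entered the study only when their blood glucose was above a set limit, and no rat received insulin. The age at harvest is not given in the sources used here. Each of the 4 groups (1M Control, 1M STZ, 3M Control and 3M STZ) held 6 CodeLink one-colour arrays. The labels do not tie arrays to animals, and the study's animal table gives fewer animals than arrays for 1M Control, so whether every array there is a separate rat is not known.

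Glycolysis splits glucose into pyruvate in the cytosol. Pyruvate is then either reduced to lactate by lactate dehydrogenase or enters mitochondria, where the pyruvate dehydrogenase complex feeds it to the TCA cycle, and the pyruvate dehydrogenase kinases (Pdk genes) switch that complex off. The retina is known for making much lactate even when oxygen is plentiful, most of it in photoreceptors. The retina takes up glucose without insulin, so its cells meet the high blood glucose of diabetes directly.

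Levels are given as scaled intensity, the spot intensity divided by the median of its array, so that 1 is the level of the median probe. Probes with a median scaled intensity above 0.554 across all 24 arrays were tested, and a gene was called when limma gave a Benjamini-Hochberg adjusted p under 0.05 over all 22025 tested probes and a change of at least 1.2-fold. Of the 28 genes, 24 were tested on 25 probes, and each is represented by its tested probe with the highest mean level. Pfkfb1, Pcx, Pdk4 and Gpd1 had only dim probes and were not tested. Because whole retina was measured, fewer cells of a type and less RNA per cell cannot be told apart.

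Properties of the arrays bear on every value at 3 months. The interquartile range of log2 intensity was 3.36 to 3.67 in 1M Control and 3.40 to 3.66 in 1M STZ, but 1.48 to 2.23 in 3M Control and 2.07 to 2.70 in 3M STZ. The 3M Control arrays thus had the narrowest spread as a group. The median of all tested probes stood 0.44 (log2) higher in STZ than in Control at 3 months, against 0.01 at 1 month. The array 3M Control 2 had a median correlation of 0.842 with its own group, while the other 23 arrays had 0.916 or more. Several results on the median scale are given without it as well. Those under quantile normalization, cyclic loess normalization and rank are given with it only. Retinal identity was clear: the rod genes Sag and Rcvrn had median scaled intensities of 139 and 54.9.

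Markers of other cells also read higher in the same 3 month comparison, where 50.5% of all tested probes were called higher. All 3 tested reactive glia markers of 4 listed (Gfap, Vim, Cd44) rose, and their summed scaled intensity was 12.9 to 35.3 in 3M Control and 52.0 to 77.2 in 3M STZ. The lens markers rose for 3 of 4 tested genes, from a sum of 74.4 to 164 in 3M Control to 203 to 413 in 3M STZ. Both tested skeletal muscle markers rose, while Ckm, Mb and Tnni2 were below the test limit. The sum for the skeletal muscle marker set was 5.80 to 7.71 in 3M Control and 8.23 to 9.39 in 3M STZ. All 4 tested bipolar and amacrine markers, the 1 cone and the 1 endothelial marker rose. So did 1 of 3 for resting Müller glia, 1 of 2 for microglia and 1 of 3 for ganglion cells. None of the 1 erythrocyte and 2 pigment epithelium markers was called on the probe that represents it. A second tested probe of the pigment epithelium gene Rpe65 was called lower (-0.83, limma adjusted p = 0.0111). The pigment epithelium sum was 3.12 to 14.0 in 3M Control and 2.89 to 97.9 in 3M STZ. Of the 3 rod markers 1 rose, with sums of 115 to 255 in 3M Control and 192 to 311 in 3M STZ. The part of these cells in the enzyme changes was not tested.

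After 3 months of diabetes most of the enzyme genes read higher, but they did so together with the bulk of well expressed genes. Of the 24 tested genes 15 rose (62.5%) and 1, Pfkfb3, fell, where 54.1% of all tested probes were called, 50.5% as higher and 3.55% as lower. The median change of the 24 genes was 0.61 (log2) against the 0.44 of all tested probes. Members had bright probes: 13 of 24 lay among the brightest 10% of the tested probes, where 11 of the 13 (84.6%) rose, beside 83.7% of the 449 other probes with a gene symbol there. Against the median of the other symbol-bearing probes in their own of 10 bins of signal, 12 members lay above and 12 below. Without 3M Control 2 the counts were again 15 higher and 1 lower, with a member median of 0.48 and an all-probe median of 0.32, and 39.7% of all tested probes were called, 37.6% as higher.

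**Figure D1:**
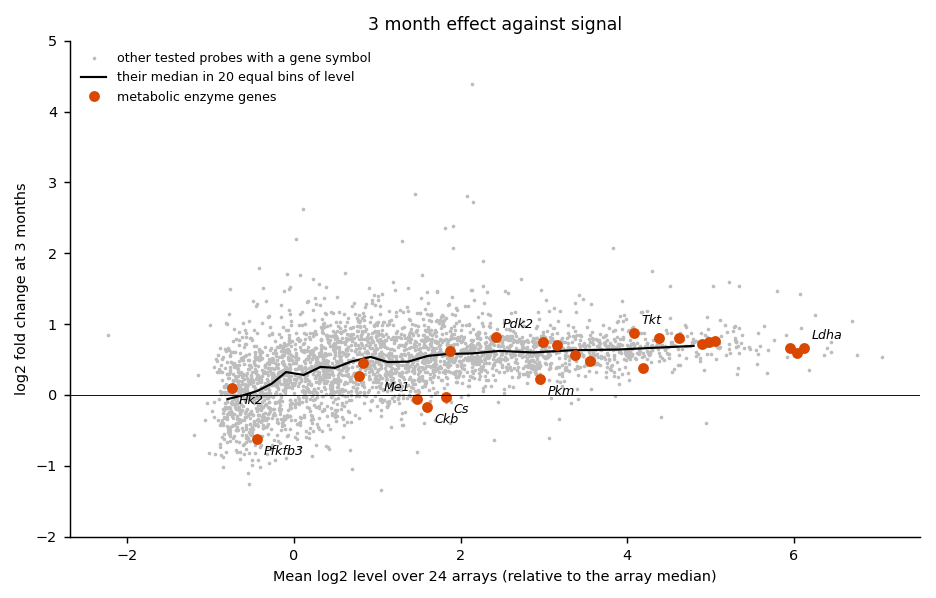
The log2 fold change of STZ over Control at 3 months (vertical axis) is plotted against the mean log2 level over the 24 arrays (horizontal axis) for other tested probes with a gene symbol (grey), with their median in 20 bins of level as a line, and for the 24 enzyme genes (orange). Most enzyme genes sit on the line at the bright end, while Pfkfb3, Ckb, Cs and Me1 lie under it. These values are on the median scale. Under quantile or cyclic loess normalization the signs of 9 and 8 of the 24 enzyme genes turned.

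The dependence on how arrays are scaled is part of the result. With quantile normalization the member median at 3 months was -0.01 and with cyclic loess normalization it was 0.01, against all-probe medians of 0.16 and 0.01. Under each of these scalings only 2 members were called, Pfkfb3 and Cs, both lower. Of all tested probes 31.5% were called under quantile normalization, 6.92% as lower, and 16.7% under cyclic loess, 5.44% as lower. When array spread (the interquartile range above) was a covariate in limma, 0 members and 0 probes were called at 3 months, and 3 members had an unadjusted p under 0.05 (Pdk2 and Tkt higher, Cs lower) among 1934 such probes. The study's own test, run per time point with a p limit of 0.01, called 4 members (Pfkl, Ldhb, Pdk2 and Tkt), each as higher, where it called 15.8% of all tested probes as higher.

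**Figure D2:**
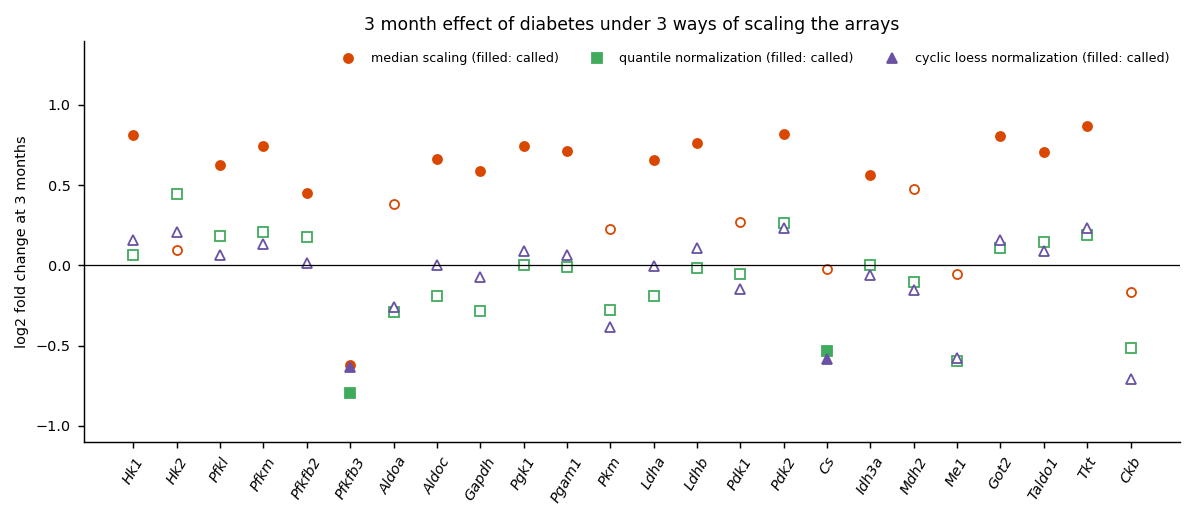
The log2 fold change of STZ over Control at 3 months is plotted for each of the 24 enzyme genes under median scaling (circles), quantile normalization (squares) and cyclic loess normalization (triangles), with called genes filled. Pfkfb3 is the gene that is filled and below 0 under all 3 scalings, Cs is filled under quantile and loess only, and the glycolytic genes that are filled under median scaling move to near 0, with Aldoc, Gapdh and Ldha turning below it.

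Hexokinases trap glucose in the cell as glucose phosphate. Hk1, the form of neural tissue, had scaled intensities of 9.59 to 30.6 (median 21.7) in 3M Control and 27.8 to 39.3 (median 34.4) in 3M STZ, and rose by 0.81 (log2, SE 0.19, limma adjusted p = 0.00180). The groups overlapped at the highest control. Hk2, the form induced by growth signals and hypoxia, changed by 0.10 and was not called, and its sign turned without 3M Control 2 (-0.04) and without 3M STZ 6 (-0.03).

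Phosphofructokinase commits sugar to glycolysis. Both tested subunit genes rose at 3 months, Pfkl by 0.62 (log2, limma adjusted p = 0.00460) and Pfkm by 0.74 (limma adjusted p = 0.00375). Under quantile and cyclic loess normalization Pfkl read 0.19 and 0.06 and Pfkm 0.21 and 0.13, and neither gene was called.

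The bifunctional Pfkfb enzymes make and break the fructose bisphosphate that activates phosphofructokinase. Pfkfb3, the inducible form with the strongest kinase activity, was the single member to fall. Its scaled intensity was 0.439 to 0.630 (median 0.543) in 1M Control, 0.620 to 0.746 (median 0.647) in 1M STZ, 0.849 to 2.82 (median 0.970) in 3M Control and 0.604 to 0.896 (median 0.729) in 3M STZ. The highest STZ values at 3 months overlapped the lowest controls, and 3M Control 2 stood far above every other array. Pfkfb3 fell by 0.62 on the log2 scale at 3 months (SE 0.20, limma adjusted p = 0.0145), and by 0.35 without 3M Control 2 (limma adjusted p = 0.0265). It was lower under quantile normalization (-0.80, limma adjusted p = 0.0353), under cyclic loess (-0.63, limma adjusted p = 0.0470) and by within-array rank. These fits all include 3M Control 2, and their values without it are not given. The call was lost with array brightness as a covariate (-0.41, limma adjusted p = 0.157), with array spread as a covariate (-0.37), in separate models of the time points and in the study's own test. Pfkfb2, the form of heart and other tissues, rose by 0.45 (limma adjusted p = 0.0145).

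The proximal promoter of Pfkfb3 is shown because this gene was the only member called lower. Those of Ldha and Tkt are shown because they rose with most members and differ in the motif that many glycolytic genes share. Sequences are the 250 bases before the start of each gene in RefSeq, GRCr8, plus strand, at chr17:71944683-71944932 (Pfkfb3), chr1:106507842-106508091 (Ldha) and chr16:5729982-5730231 (Tkt), 5′ to 3′. Capitals mark every match on either strand to the hypoxia response core ACGTG or GCGTG.
Pfkfb3: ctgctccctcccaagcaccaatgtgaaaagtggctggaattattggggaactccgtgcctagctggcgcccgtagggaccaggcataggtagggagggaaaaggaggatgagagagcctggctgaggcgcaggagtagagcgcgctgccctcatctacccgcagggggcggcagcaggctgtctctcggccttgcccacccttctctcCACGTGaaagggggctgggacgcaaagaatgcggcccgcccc
Ldha: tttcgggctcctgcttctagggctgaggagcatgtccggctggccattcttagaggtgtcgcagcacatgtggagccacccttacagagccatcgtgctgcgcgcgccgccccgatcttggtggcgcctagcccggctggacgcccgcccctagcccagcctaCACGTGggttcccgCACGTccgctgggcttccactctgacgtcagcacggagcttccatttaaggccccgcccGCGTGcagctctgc
Tkt: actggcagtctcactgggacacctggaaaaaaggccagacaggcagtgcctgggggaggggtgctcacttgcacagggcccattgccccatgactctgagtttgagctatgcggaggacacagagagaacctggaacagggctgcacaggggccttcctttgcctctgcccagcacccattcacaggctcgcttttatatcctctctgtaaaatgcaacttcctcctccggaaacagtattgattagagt
Pfkfb3 held 2 matches, which are the overlapping strands of the same palindrome CACGTG. Ldha held 4 matches, the overlapping pair of a palindrome CACGTG and 2 others. Tkt held 0 in this window. A core was present in 24 of the 42 listed genes with a promoter in the table, and in 14 of the 22 tested ones, beside 36.7% of all 33469 promoters. The letters are common, and a match describes the sequence only.

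The lower part of glycolysis turns the split sugar into pyruvate. Of its 6 tested genes 4 rose at 3 months: the brain aldolase Aldoc by 0.66 (log2, limma adjusted p = 0.00331), Gapdh by 0.59 (limma adjusted p = 0.0103), the phosphoglycerate kinase Pgk1 by 0.74 (limma adjusted p = 0.00798) and the mutase Pgam1 by 0.72 (limma adjusted p = 0.0129). Gapdh, often used as a reference gene, went from 33.7 to 71.7 (median 50.8) in 3M Control to 68.0 to 81.6 (median 73.9) in 3M STZ, with some overlap. Aldoa, the muscle and brain aldolase, changed by 0.38 (limma adjusted p = 0.124) and the pyruvate kinase Pkm by 0.23 (limma adjusted p = 0.436), and neither was called. Without 3M Control 2 these values were 0.25 and 0.02, again not called. Under quantile normalization Aldoa, Aldoc, Gapdh, Pgam1 and Pkm turned negative, and under cyclic loess Aldoa, Gapdh, Pkm and, at 0.00, Aldoc did.

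**Figure D3:**
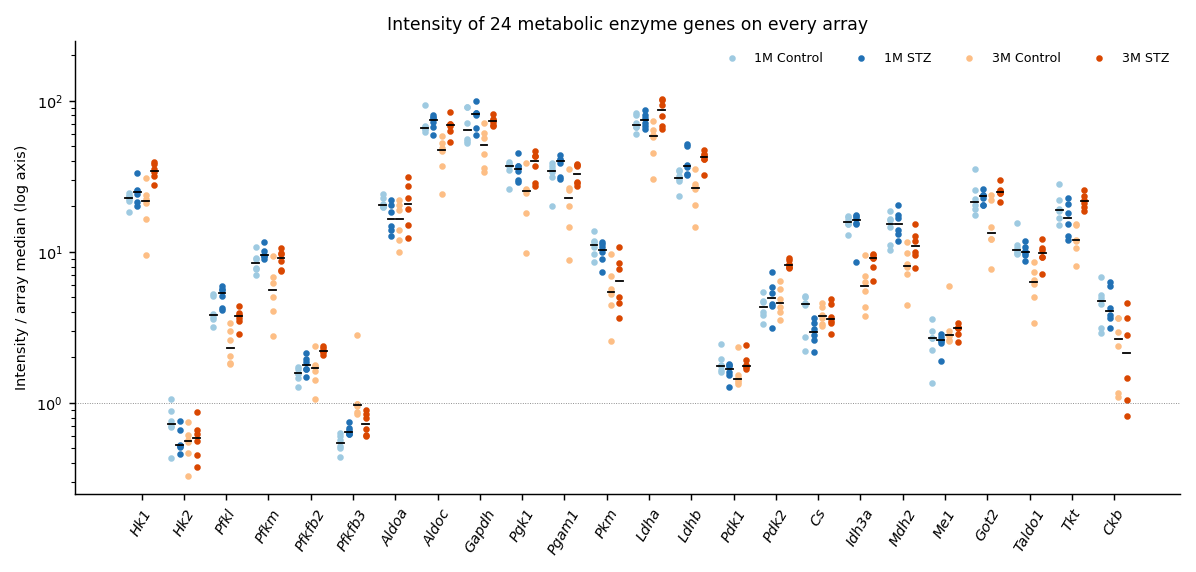
Scaled intensity (intensity divided by the array median, log axis) is plotted for the 24 enzyme genes on every array, with each group's median as a bar and the dotted line at 1, the level of the median probe. Most genes have their lowest median in 3M Control, while Pfkfb3 is higher in 3M Control than in any other group. Levels of different genes come from different probes and are not compared.

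Lactate dehydrogenase links pyruvate to lactate, with Ldha favoured in lactate-making tissue and Ldhb in lactate-using tissue. Ldha had scaled intensities of 30.6 to 73.2 (median 58.8) in 3M Control and 65.6 to 103 (median 86.7) in 3M STZ, and rose by 0.66 (log2, SE 0.17, limma adjusted p = 0.00372). The Ldha groups overlapped between the lowest STZ and the highest controls. Ldhb was 23.6 to 35.03 (median 31.0) in 1M Control, 32.4 to 51.6 (median 37.1) in 1M STZ, 14.7 to 35.4 (median 26.7) in 3M Control and 32.1 to 47.3 (median 42.6) in 3M STZ. The Ldhb groups overlapped at both times. Ldhb rose by 0.76 at 3 months (SE 0.18, limma adjusted p = 0.00155), while its second tested probe changed by 0.15 and was not called (limma adjusted p = 0.398). The log2 ratio of Ldha to Ldhb within an array cannot be moved by dividing an array by a constant. It was 1.12 ± 0.07 (SD, n = 6) in 3M Control and 1.02 ± 0.23 (SD, n = 6) in 3M STZ. The difference was -0.10 (SE 0.10) with overlapping arrays. This ratio uses the Ldhb probe that rose by 0.76, and a ratio to the second probe, which changed by 0.15, is not given.

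The pyruvate dehydrogenase kinases hold pyruvate back from the TCA cycle. Pdk2, the widely expressed form, had scaled intensities of 3.34 to 5.45 (median 4.33) in 1M Control, 3.12 to 7.42 (median 4.93) in 1M STZ, 3.56 to 6.39 (median 4.59) in 3M Control and 7.86 to 9.06 (median 8.16) in 3M STZ. All 6 STZ arrays lay above all 6 controls at 3 months. Pdk2 rose by 0.82 (log2, SE 0.17, limma adjusted p = 0.000878), and 2 of the 24 members (8.33%) separated in this way where 10.2% of all tested probes did, 9.49% with STZ higher. Within arrays, Pdk2 ranked at a median of 89.6 percent of the rat probes in 3M Control and 91.3 percent in 3M STZ. Quantile normalization and cyclic loess left 0.26 and 0.23, not called (limma adjusted p = 0.227 and 0.345). Pdk1, the form induced by hypoxia, changed by 0.27 and was not called (limma adjusted p = 0.120), and without 3M Control 2 it was (0.39, limma adjusted p = 0.0198).

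Of the TCA cycle, 3 genes were tested. Idh3a, the catalytic subunit of the NAD-linked isocitrate dehydrogenase, rose at 3 months by 0.56 (log2, limma adjusted p = 0.0173), and without 3M Control 2 (0.44, limma adjusted p = 0.0562) or without 3M Control 3 (0.48, limma adjusted p = 0.0512) it was not called. The mitochondrial malate dehydrogenase Mdh2 changed by 0.48 (limma adjusted p = 0.0508), and by 0.31 without 3M Control 2, and was called in neither. Citrate synthase, Cs, which joins acetyl groups to oxaloacetate at the entry of the cycle, was 2.21 to 5.11 (median 4.54) in 1M Control, 2.19 to 3.64 (median 2.95) in 1M STZ, 3.23 to 4.62 (median 3.74) in 3M Control and 2.85 to 4.85 (median 3.59) in 3M STZ. The 3 month groups lay on top of each other and differed by -0.02 (limma adjusted p = 0.922). Measured against the other probes of its arrays Cs was lower in 3M STZ, with a median rank of 78.7 percent against 86.6 (limma adjusted p = 0.0488), and it was called lower under quantile normalization (-0.54, limma adjusted p = 0.0236) and cyclic loess (-0.58, limma adjusted p = 0.0261).

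The shuttle, pentose phosphate and creatine kinase genes come next. Got2, the mitochondrial arm of the malate-aspartate shuttle, rose by 0.80 at 3 months (log2, limma adjusted p = 0.00304). Tkt, the transketolase that joins the pentose phosphate pathway to glycolysis, was 15.0 to 28.2 (median 19.0) in 1M Control, 11.9 to 22.8 (median 16.7) in 1M STZ, 8.05 to 15.2 (median 11.9) in 3M Control and 18.6 to 25.5 (median 21.6) in 3M STZ. Its 3 month groups did not overlap, and the difference of 0.87 (SE 0.18, limma adjusted p = 0.000750) was the largest of the 24 on the median scale. Under quantile normalization Tkt differed by 0.19 and under cyclic loess by 0.23, and neither was called (limma adjusted p = 0.442 and 0.396). Taldo1, the transaldolase of the same pathway, was 9.62 to 15.5 (median 10.4) in 1M Control, 8.72 to 11.8 (median 10.02) in 1M STZ, 3.41 to 8.51 (median 6.36) in 3M Control and 7.15 to 12.2 (median 9.78) in 3M STZ. It rose by 0.71 (limma adjusted p = 0.00277) with overlapping groups. The cytosolic malic enzyme Me1 (-0.05) and Ckb (-0.17, SE 0.36) were not called, and without 3M Control 2 they read 0.13 and -0.35, again not called. Ckb ranged from 1.10 to 3.67 in 3M Control and from 0.824 to 4.62 in 3M STZ, with an SD of log2 level of 0.79 and 1.02, the largest of the 24 tested genes in both groups.

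**Figure D4:**
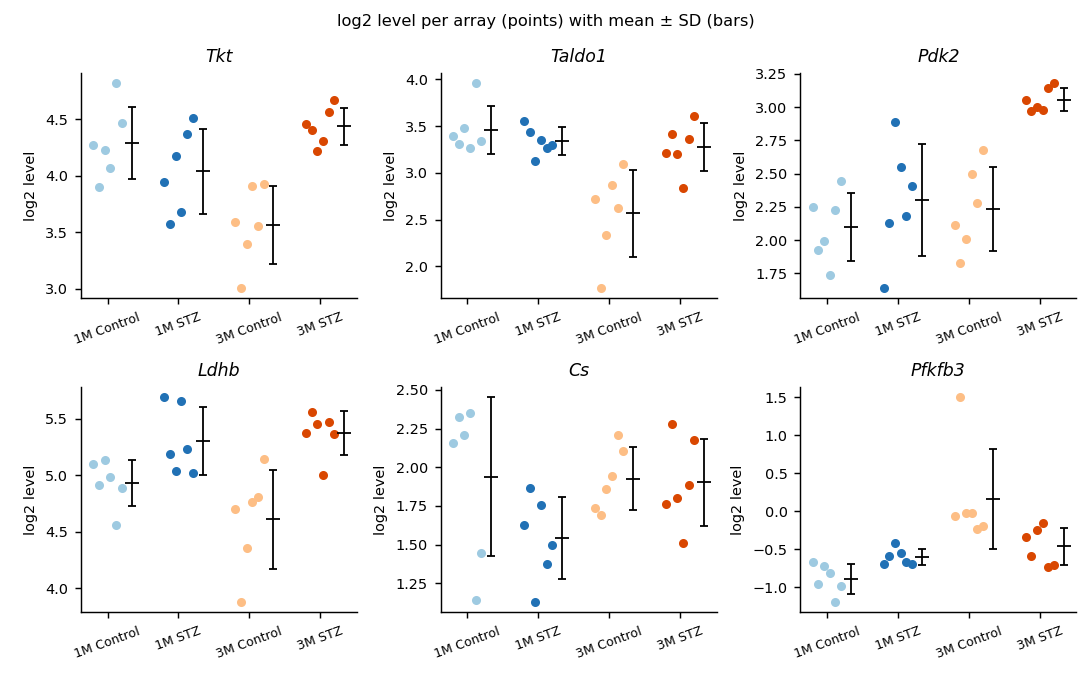
log2 level (scaled intensity) per array for Tkt, Taldo1, Pdk2, Ldhb, Cs and Pfkfb3, with the mean ± SD of the 6 arrays of a group as a bar. At 3 months STZ arrays lie above Control for Tkt and Pdk2 without overlap, mostly above for Taldo1 and Ldhb, level for Cs, and mostly below for Pfkfb3, where 1 control array reaches 1.496. For Ldhb the sign turned under quantile normalization (-0.02).

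After 1 month of diabetes no member was called, where 0.00908% of all tested probes were, and 2 members had an unadjusted limma p under 0.05 where 4.21% of all tested probes did. These were Cs, at -0.40 (log2), and Ldhb, at 0.37, the 2 largest changes at that time. The STZ arrays of Cs overlapped the controls, of which 4 were at the top and 2 among the STZ values. The member median was 0.03 against 0.01 for all tested probes, and no member's arrays separated, where 0.545% of all tested probes did.

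**Figure D5:**
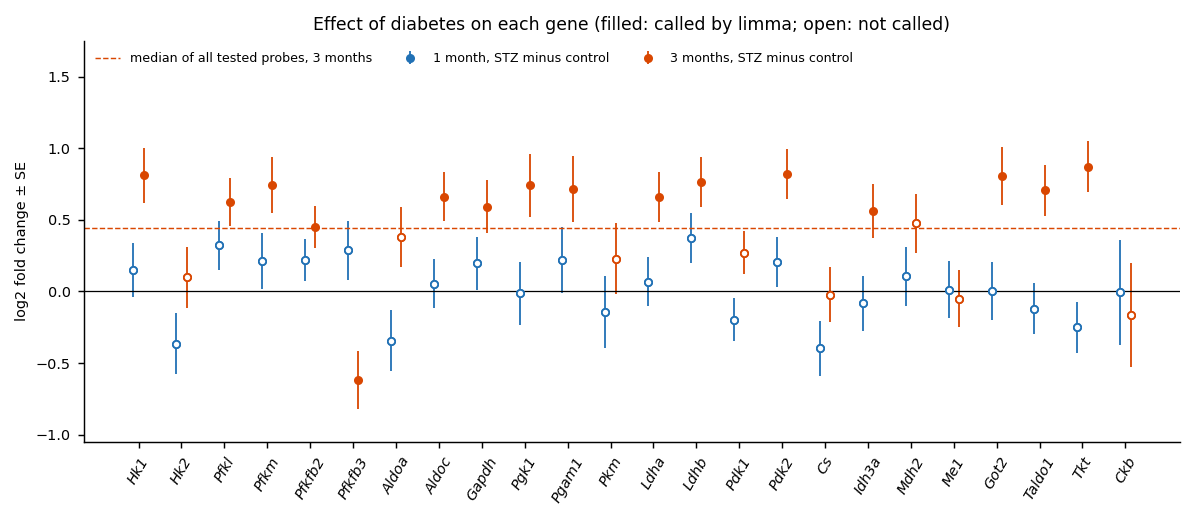
The log2 fold change of STZ over Control with its standard error at 1 month (blue) and 3 months (orange) is plotted for the 24 enzyme genes, filled where limma called it, with the median of all tested probes at 3 months as a dashed line at 0.44. The blue points scatter around 0 and none is filled, while 15 orange points are filled above 0 and Pfkfb3 is filled below it. These are values on the median scale, and under quantile or cyclic loess normalization the signs of 9 and 8 of these genes turned at 3 months.

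The difference between STZ and Control changed between the times for 3 members, 2 with a higher and 1 with a lower value at 3 months. Of all tested probes 15.5% were called in this interaction, 14.8% as higher and 0.731% as lower. Per the study, the 1 and 3 month animals were produced and killed separately, and array spread differed between the times, as given above. Duration of diabetes and these differences cannot be told apart in this interaction. Tkt differed by 1.12 (log2, limma adjusted p = 0.0171), from -0.25 at 1 month to 0.87 at 3 months. Taldo1 differed by 0.83 (limma adjusted p = 0.0342), from -0.12 to 0.71. Pfkfb3 differed by -0.91 (limma adjusted p = 0.0391), from 0.29 to -0.62, and by -0.64 without 3M Control 2. The median interaction was 0.48 over the members and 0.44 over all tested probes. No member was called in the interaction under quantile normalization, cyclic loess, rank or with array spread as a covariate, and the count ran from 1 to 12 when single arrays were left out. It was 1 without 1M Control 5, 3M Control 3, 3M STZ 2, 3M STZ 5 or 3M STZ 6, 5 without 3M STZ 4 and 12 without 3M Control 6. Of all tested probes 3.45% to 8.49% were called in the first 5 of these fits, 24.9% without 3M STZ 4 and 41.9% without 3M Control 6.

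The position of each probe within its array was compared as well. The median rank of the members was 95.3 percent of the rat probes in 1M Control, 94.4 in 1M STZ, 93.0 in 3M Control and 93.4 in 3M STZ. Aldoc, Gapdh, Pgk1, Pgam1, Ldha and Ldhb had group medians between 99.3 and 99.9 percent in every group, close to the top of the scale, where a rank can hardly rise. At 3 months a limma fit to the ranks called 2 members, both lower, where 30.7% of all tested probes were called, 6.54% as lower. These were Pfkfb3, by -13.8 points (median 48.4 to 38.2 percent, limma adjusted p = 0.0325), and Cs, by -6.33 points (limma adjusted p = 0.0488). The highest Pfkfb3 rank in 3M Control, 85.5 percent, was that of 3M Control 2, and a rank difference without this array is not given. The interquartile ranges of the 3M Control and 3M STZ arrays differed in the same comparison, as given above, and the part of that in the ranks was not tested.

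Ratios of isozymes within an array do not change when an array is divided by a constant, though a compressed array can still alter them. Of 15 pairs listed, 5 had both probes tested, and in all 5 the STZ and Control arrays overlapped at both times. At 3 months the log2 ratio of Hk1 to Hk2 was 5.19 ± 0.30 (SD, n = 6) in Control and 5.90 ± 0.36 (SD, n = 6) in STZ. The difference was 0.71 (SE 0.19). Hk1 lay in the brightest of the 10 bins of signal and Hk2 in the dimmest, with a median scaled intensity of 0.594. The other symbol-bearing probes of these bins had median changes of 0.66 and -0.0046 at 3 months. The ratio therefore cannot tell a change in isozyme balance from the difference between bright and dim probes. The ratio of Pdk1 to Pdk2 was -1.60 ± 0.55 (SD, n = 6) in Control and -2.15 ± 0.16 (SD, n = 6) in STZ, a difference of -0.55 (SE 0.23). The highest control ratio of this pair, -0.61, was that of 3M Control 2, and without this array, an alternative chosen after seeing the data, the difference was -0.35 (SE 0.15). The ratios of Pfkl to Pfkm (-0.12, SE 0.19) and of Aldoa to Aldoc (-0.28, SE 0.23) differed by about their own error, and the former was 0.02 (SE 0.13) without 3M Control 2. No test was made on these ratios.

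Some genes also had probes under the test limit. Without the limit 46.3% of all 33849 probes were called at 3 months, 32.1% as higher and 14.2% as lower. A dim probe of Got2 had scaled intensities of 0.518 to 1.504 in 3M Control and 0.212 to 0.523 in 3M STZ, and was called lower by limma (-1.07, adjusted p = 0.00506), where the bright Got2 probe rose by 0.80. The second dim Got2 probe read -0.09 and was not called (limma adjusted p = 0.725). The dim probes of Pfkm and Pdk2 read -0.36 and -0.57 at 3 months and were not called, beside rises of 0.74 and 0.82 on the bright ones. Of the 4 genes with dim probes only, Pfkfb1 was called higher without the limit (0.79, limma adjusted p = 0.0353). Its scaled intensity was 1.53 in 3M STZ 1 and at most 0.403 in the other 3M STZ arrays, and without 3M STZ 1, an alternative added after seeing the data, the difference was 0.41 with no test. Pdk4 (-0.52), Gpd1 (-0.51) and Pcx (0.04) were not called.

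Other genes of the same pathways, 56 listed by pathway, also read mostly higher at 3 months. Of these, 28 had a probe and 18 were tested, and 12 rose and 1 fell, with a median of 0.58, beside 50.5% higher, 3.55% lower and a median of 0.44 over all tested probes. Among the called genes with the largest rise were Pklr, the liver and erythrocyte pyruvate kinase (0.86, limma adjusted p = 0.000855), and Eno3, the muscle enolase (0.78, limma adjusted p = 0.00249). Among the lowest values were those of the glycogenin Gyg1 (-0.28) and the lipoamide dehydrogenase Dld (-0.27), and neither was called. Without 3M Control 2 the counts fell to 6 higher and 1 lower, where 37.6% of all tested probes were called higher and 2.07% lower.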

How the data were processed

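Total RNA of whole retina was hybridised to CodeLink rat whole genome arrays, 6 arrays in each of 4 groups. Per the study's methods, the authors scanned the slides, excluded defective spots, subtracted background and normalized within arrays in CodeLink software. The deposited files give this intensity per probe, and a deposited normalized intensity that is the same value after division by a scale factor near the array's median. The deposited series table held the same normalized intensities, with 0 differing values. No genome build is given in the sources used here.

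Here each intensity was divided by the median of the 33849 rat probes of its array, floored at 0.01 and taken to log2. Probes above the 35th percentile of median scaled intensity (0.554) with at least 4 values in each group were tested (22025) with limma 3.58.1 in R 4.3.3, in one model of the 4 groups, with Benjamini-Hochberg adjustment over all tested probes. The RefSeq gene table named 4675 of the 5469 probes with a RefSeq accession. The number of arrays limits the precision, and p-values measure the spread between these arrays. No 2 arrays were identical (0 pairs).

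For the 3 month comparison, data were simulated over 22025 probes. Of 100 changes of 1 on the log2 scale 80 were recovered, and of 100 changes of 2 all 100, with 10 false calls. These counts describe the simulated data only and are not an error rate for the calls on the arrays. How the differences in array spread at 3 months bear on false calls was not tested. Members, gene lists and markers were chosen with earlier results of these data known. Array values are given for members called at 3 months with separate arrays, called lower, called in the interaction or called under both median and quantile scaling, and for the 2 largest changes at 1 month. Those of Hk1, Gapdh, Ldha and Ckb and of the dim Got2 and Pfkfb1 probes were added after their values were seen. Within-array rank is the percentile of a probe among rat probes.

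Alternatives were the study's own test (per time point, unequal variances, p under 0.01 and 1.2-fold, also with adjustment), separate models, replicate block, quantile and cyclic loess normalization, rank, subtraction of the 5th percentile, other filters and floors, array weights, a variance trend, array brightness or spread as covariates, every probe counted, and leaving out each array. Promoters are those of the RefSeq GRCr8 table, of which 42 of the 46 genes had one. Of the other pathway genes, those with the largest rise and the lowest values are named, and a few results are not reported here.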

Additional observations from a re-analysis of the deposited data

Results flagged for a closer look

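There were 96 sets of 6 arrays (24 genes in 4 groups). In 10 of them an array's distance from its nearest neighbour took up an unusually large part of the group's range. Chance gives this in about 1 of 20 independent sets. These sets share the same 24 arrays and are not independent, and the count was not tested against that rate. Values are log2 levels. The array 3M Control 2 was the highest of its group for Pfkfb3 (1.496, others -0.24 to -0.02), Pdk1 (1.22, others 0.42 to 0.63) and Me1 (2.57, others 1.36 to 1.58). The array 1M Control 5 was the lowest for Pgk1 (4.70) and Pgam1 (4.32) and the highest for Taldo1 (3.96). The other arrays were 1M Control 6 for Aldoc (6.54, high), 1M STZ 5 for Idh3a (3.09, low), 1M STZ 6 for Me1 (0.93, low) and 3M STZ 4 for Ldhb (5.00, low).

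The difference between STZ and Control changed between 1 and 3 months by limma's interaction term for Tkt (1.12), Taldo1 (0.83) and Pfkfb3 (-0.91). With single arrays left out, the call was lost in 12 of the 24 fits for Pfkfb3, 6 for Taldo1 and 0 for Tkt. Duration of diabetes cannot be told apart here from the separate animal sets and the array spread.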

How the results depend on the processing

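At 3 months 16 members were called. The study's own test called 4 (16.9% of all tested probes), and 2 after adjustment (8.72%); quantile normalization, cyclic loess and within-array rank called 2 each, array brightness as a covariate 4 (18.4%) and array spread as a covariate 0. At 1 month array weights called 1 (Cs, lower; 1.63% of all tested probes) and the other fits 0. In the interaction, array weights called 12 (46.9% of all tested probes), brightness 1 (5.58%), and quantile normalization (10.8%), cyclic loess (0.39%), rank (10.8%) and spread (0 probes) 0. The study's test and the separate models give no interaction. Of the 13 other pathway genes called at 3 months, the numbers were 2 with the study's own test, 1 after adjustment, 5 with quantile normalization, 3 with cyclic loess, 4 by rank, 4 with brightness and 0 with spread. The member median less the all-probe median, 0.16, was -0.17 with quantile normalization, -0.0031 with cyclic loess, -2.10 percentile points by rank, 0.047 with the 5th percentile subtracted, 0.39 without the filter, 0.014 with brightness and 0.079 with spread. The filters, floors, variance trend, no fold limit, deposited normalized intensity, separate models and every probe counted left the 3 month count between 15 and 17.

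Signs turned at 3 months as follows (log2). With quantile normalization these were Aldoa -0.29, Aldoc -0.19, Gapdh -0.28, Pgam1 -0.0086, Pkm -0.28, Ldha -0.19, Ldhb -0.019, Pdk1 -0.057 and Mdh2 -0.11. With cyclic loess they were Aldoa -0.26, Aldoc -0.00060, Gapdh -0.071, Pkm -0.38, Ldha -0.0036, Pdk1 -0.15, Idh3a -0.062 and Mdh2 -0.15. With array spread they were Hk2 -0.15, Aldoa -0.20, Pgk1 -0.091, Pkm -0.52, Idh3a -0.10 and Mdh2 -0.16, with brightness Hk2 -0.12, Cs 0.19 and Me1 0.19, and with array weights Hk2 -0.018 and Me1 0.17. By rank, in percentile points, they were Aldoa -0.85, Aldoc -0.080, Gapdh -0.080, Pgk1 -0.060, Pgam1 -0.035, Pkm -2.69, Ldha -0.073, Ldhb -0.038, Pdk1 -0.67 and Mdh2 -0.82. The cause of these changes was not tested.

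Leaving out single arrays gave 15 to 17 members at 3 months, 0 to 0 at 1 month, 1 to 12 in the interaction, 7 to 13 other pathway genes (7 without 3M Control 2) and a median difference of 0.11 to 0.20. Signs turned for Hk2 (-0.039 to 0.22), Cs (-0.098 to 0.056), Me1 (-0.11 to 0.13) and Ckb (-0.41 to 0.087). Pfkfb3 ran from -0.70 to -0.35 and was called each time. In the interaction Pfkfb3 was lost in 12 of the 24 fits, Taldo1 in 6 and Tkt in 0. Mdh2 was called at 3 months in 7 of the 24 fits.

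With the replicate number as a replicate block, 16 members were called at 3 months, 0 at 1 month and 4 in the interaction, and 10 other pathway genes at 3 months. The numbers are taken as names: arrays of one number deviated together with correlations of -0.24 to 0.25, and 5 of 24 arrays correlated best with their own number. With 6 arrays a group, small changes can be missed.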
